A study of Mus musculus with 21 samples.

Results

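The genes described here encode the NF-kB subunits and their inhibitors: Nfkb1, Nfkb2, Rel, Rela, Relb, Nfkbia, Nfkbib, Nfkbie, Nfkbiz and Tnfaip3. They were chosen by name, and all 10 are among the 23544 genes that the deposited transcript table yields once TPM (a length-corrected share of a library's transcripts, on a fixed total) is summed per gene. RNA was sequenced from 21 libraries of CD11b+ peritoneal cells of unelicited C57BL/6 mice, 9 of wild type, 6 labelled Lum-/- (lumican gene) and 6 labelled Bgn-/- (biglycan gene; the protocol writes these animals as Bgn-/0 or -/-). Both proteins are matrix proteoglycans with leucine-rich repeats, and the design asks how they bear on the responses to LPS, a ligand of TLR4, and CpG DNA, a ligand of TLR9. Cells were plated overnight and then left without stimulus or given 100 ng/mL LPS or 1 µM CpG for 6 h in serum-free medium, some after 1 h with 10 µg/mL of recombinant lumican or biglycan. Wild-type cells were used without protein, with lumican or with biglycan. Cells labelled Lum-/- were used without protein or with lumican only, and cells labelled Bgn-/- without protein or with biglycan only. Each of these 7 strata was left without stimulus, given LPS and given CpG. For protein in the absence of a stimulus, dose and time are not in the labels. Each combination has 1 library and the mice are given only as n = 10, so genotype effects and those of the preparation of cells cannot be told apart. P-values therefore measure the spread between matched libraries, which may be technical, and not between animals.

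NF-kB proteins bind DNA as dimers of Rel-family subunits, and in resting cells IkB proteins hold them in the cytoplasm. Toll-like receptors signal through adaptors such as MyD88 to the IKK kinases, IKK marks IkB for destruction, and the freed dimers enter the nucleus. Several inhibitors, among them IkBα and A20, are themselves NF-kB target genes, which closes a negative feedback loop. In macrophages this pathway drives cytokine and chemokine genes after contact with microbial products.

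The 5 subunit genes lie on GRCm38 at chr3:135584655-135691547 (Nfkb1, ENSMUSG00000028163), chr19:46304320-46312385 (Nfkb2, ENSMUSG00000025225), chr11:23736847-23770970 (Rel, ENSMUSG00000020275), chr19:5637483-5648130 (Rela, ENSMUSG00000024927) and chr7:19606217-19629438 (Relb, ENSMUSG00000002983). The inhibitor genes lie at chr12:55489410-55492647 (Nfkbia, ENSMUSG00000021025), chr7:28758251-28767512 (Nfkbib, ENSMUSG00000030595), chr17:45555703-45563169 (Nfkbie, ENSMUSG00000023947), chr16:55811375-55838899 (Nfkbiz, ENSMUSG00000035356) and chr10:19000910-19015657 (Tnfaip3, ENSMUSG00000019850). Values below are sums over all transcripts of a gene.

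Promoter sequences are shown because the members that rose most under LPS are textbook NF-kB targets. RefSeq windows (GRCm38.p6, 250 bases before to 50 bases after an annotated start) were matched by symbol for 7 of the 10 genes, with 10 windows in all. Nfkb1, Relb and Nfkbiz are named only. The 10-base NF-kB consensus was searched on both strands. Matches are in capitals, and overlapping matches form a single stretch. A match was present in 7 of the 10 windows, against 8.46% of all 32851 windows of this length. At least 2 separate stretches were present in 0.521% of all windows. By gene, 5 of the 7 had a match, but some have more than 1 window, and a share per gene over all genes was not computed. Each line gives the gene strand, 5′ to 3′.
Nfkbia (IkBα), chr12:55492598-55492897, minus strand: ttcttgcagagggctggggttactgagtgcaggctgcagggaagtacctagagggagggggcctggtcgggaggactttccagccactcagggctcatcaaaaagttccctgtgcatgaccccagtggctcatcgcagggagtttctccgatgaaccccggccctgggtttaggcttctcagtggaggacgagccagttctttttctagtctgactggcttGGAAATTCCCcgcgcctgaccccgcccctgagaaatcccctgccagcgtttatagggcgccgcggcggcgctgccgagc
Tnfaip3 (A20), upstream start, chr10:19015361-19015660, minus strand: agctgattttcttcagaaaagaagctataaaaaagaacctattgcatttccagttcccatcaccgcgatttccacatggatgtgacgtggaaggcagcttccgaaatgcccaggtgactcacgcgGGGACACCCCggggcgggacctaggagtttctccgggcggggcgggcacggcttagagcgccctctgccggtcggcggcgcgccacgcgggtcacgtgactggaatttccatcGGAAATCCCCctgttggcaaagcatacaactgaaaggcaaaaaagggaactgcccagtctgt
Tnfaip3, downstream start, chr10:19011914-19012213, minus strand: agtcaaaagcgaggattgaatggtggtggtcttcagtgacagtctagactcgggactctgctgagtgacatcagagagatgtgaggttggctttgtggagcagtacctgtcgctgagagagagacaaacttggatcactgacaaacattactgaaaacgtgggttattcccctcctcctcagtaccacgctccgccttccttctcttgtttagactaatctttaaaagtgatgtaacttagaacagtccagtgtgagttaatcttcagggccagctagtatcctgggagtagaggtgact
Nfkb2 (p100), upstream start, chr19:46304487-46304786, plus strand: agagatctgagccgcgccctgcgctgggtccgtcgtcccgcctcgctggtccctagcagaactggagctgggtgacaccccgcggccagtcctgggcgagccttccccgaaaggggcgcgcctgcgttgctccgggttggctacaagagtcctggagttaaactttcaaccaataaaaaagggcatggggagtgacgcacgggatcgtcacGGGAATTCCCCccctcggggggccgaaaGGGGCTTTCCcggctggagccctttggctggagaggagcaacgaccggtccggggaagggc
Nfkb2, downstream start, chr19:46305445-46305744, plus strand: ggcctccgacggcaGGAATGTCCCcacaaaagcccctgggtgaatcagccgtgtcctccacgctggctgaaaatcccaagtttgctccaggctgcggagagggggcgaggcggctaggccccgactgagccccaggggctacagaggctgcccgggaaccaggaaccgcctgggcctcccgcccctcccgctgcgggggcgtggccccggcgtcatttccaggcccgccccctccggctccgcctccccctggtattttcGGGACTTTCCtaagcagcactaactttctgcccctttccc
Nfkbie (IkBε), chr17:45555450-45555749, plus strand: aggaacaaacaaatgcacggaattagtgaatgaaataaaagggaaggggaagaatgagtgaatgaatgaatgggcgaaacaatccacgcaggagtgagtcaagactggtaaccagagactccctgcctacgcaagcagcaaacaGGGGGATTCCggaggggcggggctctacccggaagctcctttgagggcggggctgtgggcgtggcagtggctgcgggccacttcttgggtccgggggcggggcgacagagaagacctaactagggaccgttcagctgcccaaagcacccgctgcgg
Rela (p65), chr19:5637291-5637590, plus strand: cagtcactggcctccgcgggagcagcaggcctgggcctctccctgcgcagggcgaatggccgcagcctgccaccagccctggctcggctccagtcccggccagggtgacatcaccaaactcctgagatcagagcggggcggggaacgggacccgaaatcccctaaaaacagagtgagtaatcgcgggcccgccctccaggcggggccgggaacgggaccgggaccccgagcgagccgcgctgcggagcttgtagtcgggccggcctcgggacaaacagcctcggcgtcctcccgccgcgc
The upstream Tnfaip3 window and both Nfkb2 windows shown held 2 stretches each. Nfkbia and Nfkbie held 1 each, as did Rel (chr11:23770920-23771219) and a further Nfkb2 window (chr19:46305680-46305979) that overlaps the downstream one. The match in that further window is a site already marked in the downstream window, so it is counted in both. The downstream Tnfaip3 window, the Rela window and the Nfkbib window (chr7:28766595-28766894) held none. The most abundant Nfkbib transcript starts at chr7:28766514, outside that window. These are letter matches in short windows, with no measurement of binding.

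Before the results, 2 libraries were set aside from the fits: cells labelled Lum-/- without protein or stimulus, and cells labelled Bgn-/- given biglycan without a stimulus. They held 40231 and 40241 transcripts above 0, against 50990 to 59621 in the other 19. Their Arg1 was 601 to 688 TPM, against 1.17 to 67.2 TPM. Although their labels differ, they resembled each other more than any of the 20 other pairs of unstimulated libraries did (SD of log2 differences over 1333 abundant genes 0.221, against 0.275 to 0.707). Among all 210 pairs of libraries, theirs ranked 5 in likeness. The libraries given LPS alone, labelled Bgn-/- and wild type, were closer (0.215) and also differ in label. All 10 members were lower in both libraries set aside than in each of the 5 other unstimulated libraries. Nfkb2, for example, was 85.7 and 85.8 TPM, Nfkbie 68.2 and 69.6 TPM, and Nfkbiz 16.4 and 18.3 TPM. The share of all genes so placed was not computed, so this count cannot be read as particular to the members. In the other 19 libraries the targeted genes went against both labels. Lum was 1.17 to 14.1 TPM in the 5 remaining libraries labelled Lum-/- and 0 to 1.40 TPM in wild type, and Bgn was 0.758 to 3.49 TPM in the 5 remaining libraries labelled Bgn-/- and 0.327 to 1.52 TPM in wild type. The other gene was low under each label in these libraries. Bgn was 0 to 0.263 TPM in the 5 remaining libraries labelled Lum-/-, and Lum was 0 to 0.134 TPM in the 5 labelled Bgn-/-. The 2 libraries set aside did not follow this pattern. The one labelled Lum-/- had Lum at 0.823 TPM and Bgn at 1.72 TPM. The one labelled Bgn-/- had Lum at 1.10 TPM and Bgn at 0 TPM. With LPS, Lum was 12.0 and 14.1 TPM under the Lum-/- label and 0.718 to 1.40 TPM in wild type. Whether labels were exchanged was not tested, and which genotype a mutant label stands for cannot be settled here. Genotypes are therefore named below by label, and each label comparison holds for the libraries so labelled. All 9 macrophage markers were measured in every stimulus group, and their summed level was 38839 to 44625 TPM without stimulus, 33548 to 38462 TPM with CpG and 13907 to 17675 TPM with LPS. Most of that sum was Lyz2, at 9666 to 38548 TPM over the fitted libraries, so it mainly follows that gene. Of the 9 markers, 6 were below their unstimulated range in every LPS library, as were 62.0% of all genes, and 1 was above it. In bulk RNA, fewer cells of a type and less RNA per cell cannot be told apart.

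Without stimulus, Nfkbia was the most abundant of the 10 transcripts, with a median of 259 TPM over 5 libraries. Rela, Nfkb2 and Nfkb1 came next, with medians of 125, 123 and 123 TPM, in that order, and overlapping ranges. Nfkbie, Tnfaip3 and Relb also overlapped, with medians of 97.6, 92.9 and 91.6 TPM. Nfkbib (66.6 TPM), Nfkbiz (29.2 TPM) and Rel (14.9 TPM) followed, each separated from its neighbour in the order. With LPS the order changed: Nfkbia (853 TPM) was followed by Tnfaip3 (705 TPM), then by Nfkb1 (357 TPM) and Nfkb2 (335 TPM), whose ranges overlapped. Rel was lowest under all 3 conditions.

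**Figure D1:**
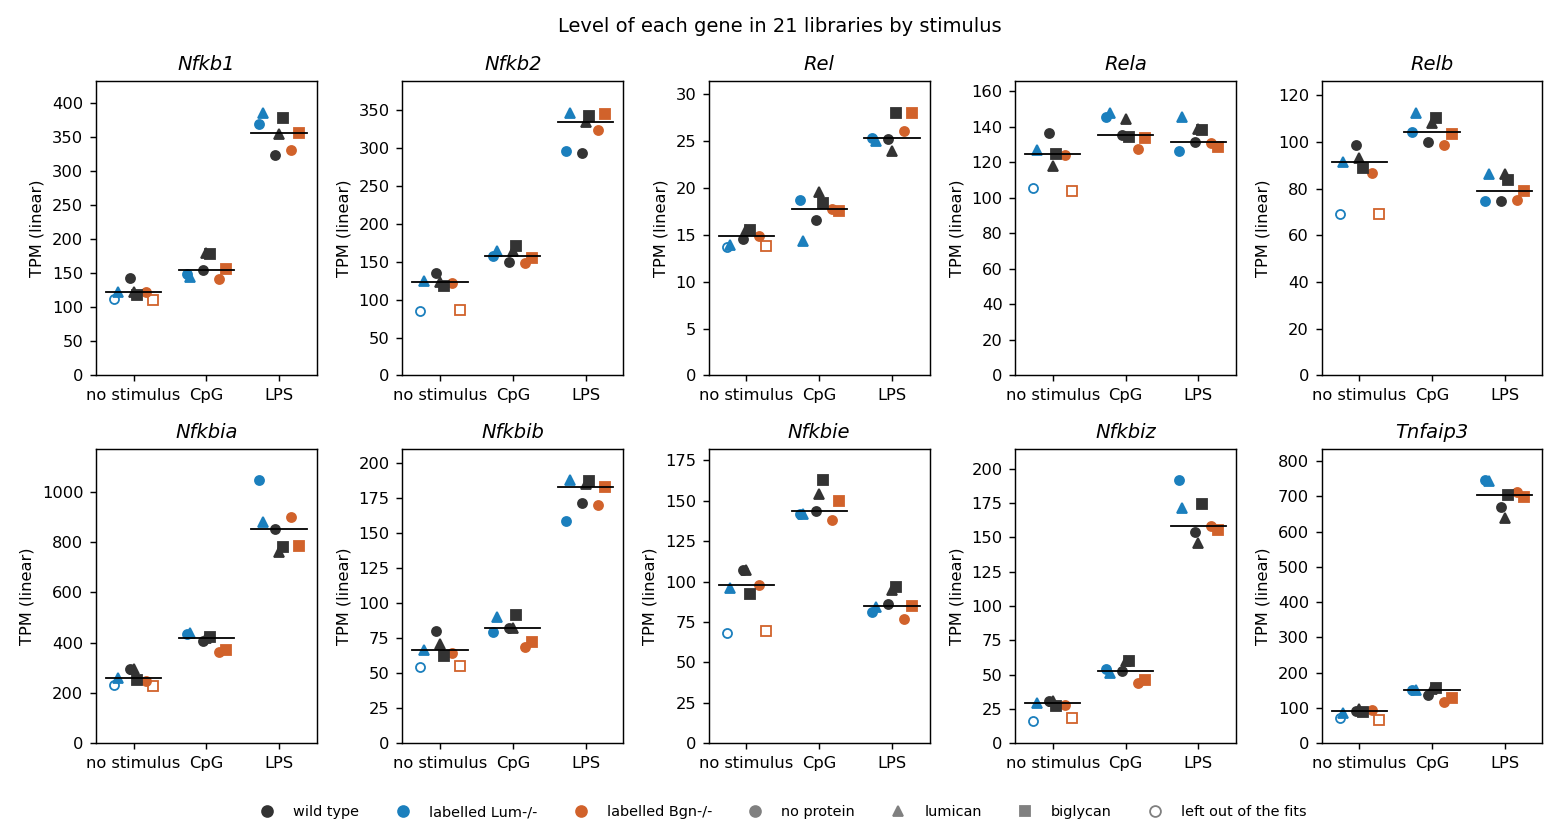
TPM (linear axes) of the 10 genes in 21 libraries by stimulus; colour gives the genotype label, shape the protein, black lines the median of the fitted libraries, and hollow points the 2 libraries left out. Tnfaip3 lies between 639 and 745 TPM in the 7 LPS libraries and at 85.8 to 97.8 TPM in the 5 fitted libraries without stimulus, while Rela overlaps across all 3 conditions.

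LPS was compared with no stimulus within 5 matched strata of genotype and protein (limma on log2(TPM + 1), 19 libraries). Of the 10 genes, 7 rose and 2 fell at an adjusted p under 0.05, where 14.5% of the 11672 genes tested rose and 72.2% fell. The median of all genes moved by -0.71 on the log2 scale. After median-of-ratios scaling, which removes that shift, all 10 genes were higher with LPS, where 39.3% of genes were. The 7 that rose were called higher on both scales and with all 21 libraries.

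The largest rise was in Tnfaip3, which encodes A20, a ubiquitin-editing enzyme that switches off signalling to IKK. Its level without stimulus was 92.9, 97.8 and 89.0 TPM in wild type with no protein, lumican and biglycan, 85.8 TPM in the library labelled Lum-/- with lumican and 94.5 TPM in the library labelled Bgn-/- without protein. With LPS the 7 libraries ran from 639 TPM through a median of 705 TPM to 745 TPM, so the groups were far apart. The fitted difference was 2.91 ± 0.07 (log2, SE), or 7.53-fold, with an adjusted p of 5.75e-13 and a rise in 5 of 5 pairs.

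Nfkbiz, which encodes the nuclear protein IkBζ, a coactivator of a subset of late NF-kB targets, rose next most. In the same order of libraries it was 30.5, 30.8, 27.1, 29.2 and 27.9 TPM without stimulus, and 146, 158 and 191 TPM (lowest, median, highest) with LPS. Every LPS library was above every unstimulated library, and the difference was 2.45 ± 0.08 (5.46-fold, adjusted p = 3.13e-12). Nfkbia, the gene of the main cytoplasmic inhibitor IkBα, was 295, 295, 250, 259 and 246 TPM without stimulus and 759, 853 and 1045 TPM with LPS. It too was separated completely, by 1.65 ± 0.07 (3.14-fold, adjusted p = 3.53e-11). The highest value, 1045 TPM, was in the library labelled Lum-/- given LPS alone.

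Nfkbib and Nfkbie encode the other classical cytoplasmic inhibitors, IkBβ and IkBε, and they parted under LPS. Nfkbib was 80.0, 71.2, 62.3, 66.6 and 64.4 TPM without stimulus and 158, 183 and 188 TPM with LPS, a difference of 1.39 ± 0.07 (2.61-fold, adjusted p = 2.60e-10). The groups did not overlap. Nfkbie was 107, 107, 92.5, 96.2 and 97.6 TPM without stimulus and 77.0, 85.1 and 96.4 TPM with LPS, so its ranges overlapped. Its share fell by 0.20 ± 0.05 (adjusted p = 0.00335, lower in 4 of 5 pairs), but after scaling it was 0.61 higher, and with all 21 libraries the fall was lost (adjusted p = 0.470).

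Among the subunits, the genes of the precursor proteins rose most. Nfkb1, which encodes p105, the precursor of p50, was 143, 122, 118, 123 and 123 TPM without stimulus and 324, 357 and 386 TPM with LPS. Its difference was 1.50 ± 0.07 (2.84-fold, adjusted p = 1.26e-10). Nfkb2, which encodes p100, the precursor of p52 and itself an inhibitor of RelB dimers, was 136, 123, 118, 125 and 123 TPM without stimulus and 293, 335 and 347 TPM with LPS. It differed by 1.38 ± 0.06 (2.61-fold, adjusted p = 3.17e-11), and for both genes every LPS library was above every unstimulated one. Rel, the gene of c-Rel, was lower throughout, at 13.9, 14.9 and 15.5 TPM (lowest, median, highest) without stimulus and 23.9, 25.3 and 28.0 TPM with LPS, and it rose by 0.74 ± 0.06 (1.68-fold, adjusted p = 3.39e-08).

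Rela and Relb, which encode the transactivating partners p65 and RelB, did not rise with these precursors in TPM. Rela was 136, 118, 125, 127 and 124 TPM without stimulus and 127, 132 and 146 TPM with LPS, with overlapping ranges and a difference of 0.10 ± 0.05 (adjusted p = 0.0776). It was called higher after scaling (0.91) and with all 21 libraries (0.17, adjusted p = 0.00872). The call was also gained, at an adjusted p of 0.0170 to 0.0454, when the untreated wild-type library or either of the 2 libraries labelled Lum-/- given LPS alone or CpG alone was left out. Relb was 98.9, 93.1, 88.9, 91.6 and 86.6 TPM without stimulus and 74.7, 78.8 and 86.3 TPM with LPS. All LPS libraries were below all unstimulated ones, by 0.18 ± 0.05 at an adjusted p of 0.00325, although after scaling Relb was 0.62 higher and with all 21 libraries its adjusted p was 0.224.

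Complete separation of the LPS and unstimulated libraries was seen upward in 7 members, against 10.3% of all genes, and downward in 1, against 62.0% of all genes. Summed markers of some other cells also differed with LPS. Summed mast cell markers were 4.75 to 90.0 TPM without stimulus, 5.64 to 122 TPM with CpG and 140 to 203 TPM with LPS. Only 1 of the 7 markers, Hdc, was above its unstimulated range in every LPS library. The 6 others summed to 3.45 to 86.0 TPM without stimulus and 2.55 to 76.9 TPM with LPS, so without Hdc no rise was seen. Summed neutrophil markers were 125 to 162, 150 to 204 and 318 to 398 TPM, with 2 of 7 above their unstimulated range in every LPS library and Ngp and Elane at 0 there. Most of that sum was S100a8, at 121 to 387 TPM over the fitted libraries, while S100a9 was at most 0.589 TPM. Dendritic cell markers summed to 10.0 to 15.8, 4.35 to 7.98 and 2.14 to 4.09 TPM. B cell markers summed to 138 to 240, 105 to 190 and 118 to 201 TPM, with overlapping ranges. By label, B cell markers were 138 to 240 TPM in wild type, 105 to 178 TPM (Lum-/-) and 149 to 199 TPM (Bgn-/-). The part of these cells in the results was not tested.

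**Figure D2:**
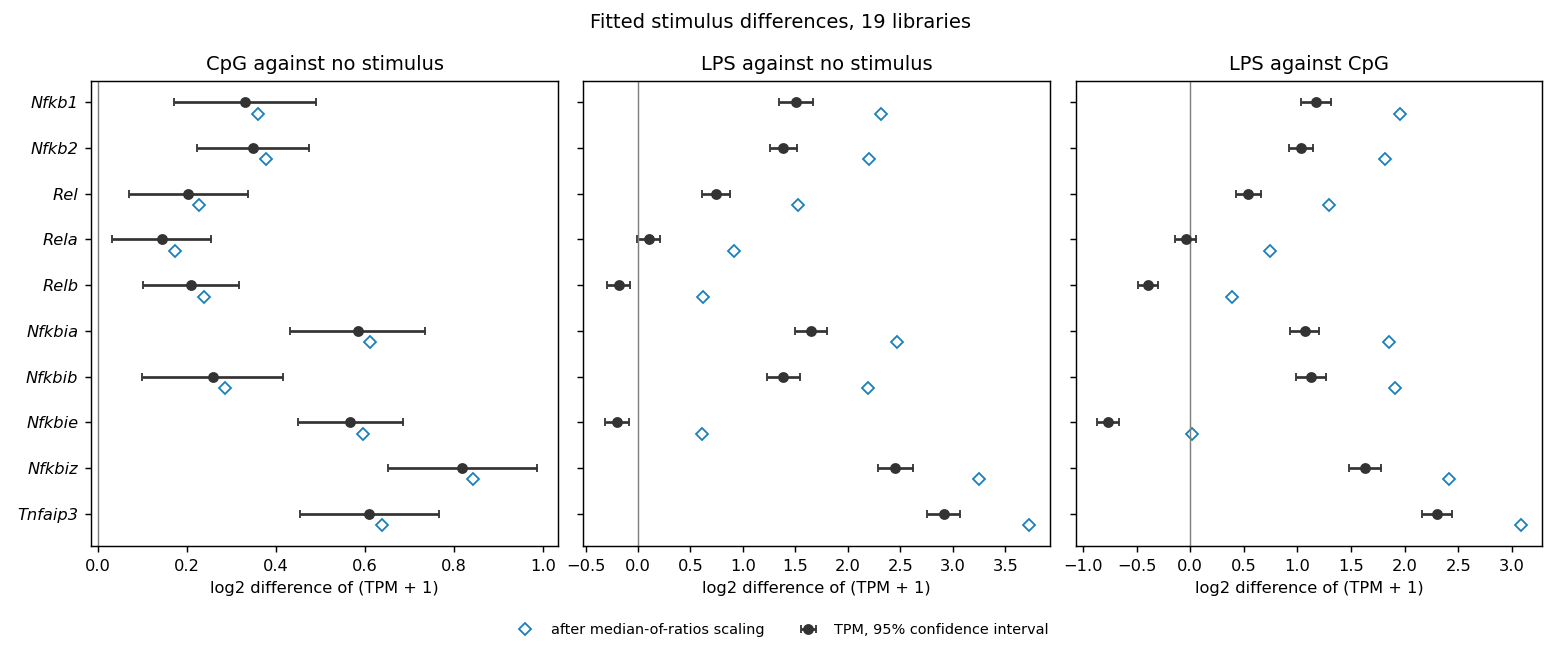
Fitted log2 differences for CpG and LPS against no stimulus and for LPS against CpG, with 95% confidence intervals (filled points), and the same fit after median-of-ratios scaling (diamonds), in 19 libraries. All 10 genes lie above 0 with CpG; with LPS, Relb and Nfkbie lie below 0 in TPM and above 0 after scaling.

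CpG gave changes in a single direction, and for the 7 genes that rose with LPS these were smaller than with LPS. For Rela, Relb and Nfkbie the change in TPM was not smaller with CpG. All 10 genes were higher than without stimulus at an adjusted p under 0.05, where 15.2% of the genes tested rose and 19.9% fell, and all 10 were also called after scaling, where 17.5% of genes rose, and with all 21 libraries. The differences ran from 0.14 to 0.82 on the log2 scale. The call was not equally firm for each gene. It held for 5 of 10 without the wild-type libraries, where 622 of 11644 genes were called higher. In an additive fit of stimulus alone against untreated it held for 5 of 10, where 1075 of 11672 genes were. The main fit called 1778 of 11672 higher, so calls were lost among all genes too. Nfkb1, Rel, Rela, Relb and Nfkbib lost it in both. Every CpG library was above every unstimulated one for 5 genes, Nfkb2, Nfkbia, Nfkbie, Nfkbiz and Tnfaip3, where 7.1% of all genes were so separated.

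The inhibitors led the CpG response. Nfkbiz was 43.6, 52.8 and 59.7 TPM (lowest, median, highest of 7) with CpG, a rise of 0.82 ± 0.08 (1.76-fold, adjusted p = 4.88e-06). Tnfaip3 reached 117, 150 and 157 TPM, a rise of 0.61 ± 0.07 (1.53-fold, adjusted p = 3.29e-05). Nfkbia reached 361, 419 and 440 TPM, a rise of 0.58 ± 0.07 (1.50-fold, adjusted p = 3.73e-05). Nfkbie, which did not rise in TPM with LPS, was the fourth of this group, at 138, 144 and 163 TPM with CpG and a rise of 0.57 ± 0.05 (1.48-fold, adjusted p = 6.00e-06). Nfkbib rose less, to 68.4, 82.4 and 91.4 TPM, by 0.26 ± 0.07 (adjusted p = 0.0141). Its range overlapped that without stimulus, and its call was lost (adjusted p up to 0.0582) without the lumican-alone library labelled Lum-/- or the biglycan-alone wild-type library.

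The 5 subunit genes rose by 0.14 to 0.35 with CpG. Nfkb2 (148, 158 and 171 TPM) rose by 0.35 ± 0.06 with an adjusted p of 0.000469, and Nfkb1 (142, 156 and 179 TPM) by 0.33 ± 0.07 with an adjusted p of 0.00355. Relb (98.6, 104 and 113 TPM) rose by 0.21 ± 0.05 with an adjusted p of 0.00528. Rel (14.3, 17.8 and 19.6 TPM) rose by 0.20 ± 0.06 with an adjusted p of 0.0211, and lost the call at 0.0539 to 0.0628 without any of 3 libraries: untreated labelled Bgn-/-, wild type with lumican and CpG, and wild type with biglycan alone. Rela (127, 135 and 148 TPM) was nearest the threshold, at 0.14 ± 0.05 and an adjusted p of 0.0432, higher in 4 of 5 pairs. Leaving out any of 14 of the 19 libraries raised its adjusted p to between 0.0521 and 0.1325.

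LPS was then compared directly with CpG in 7 matched strata. With LPS 7 genes were higher, where 12.4% of genes were, and 2 were lower, where 75.7% were. Every LPS library was above every CpG library for those 7, where 8.09% of genes were so placed, and below for Relb and Nfkbie, where 62.4% were. The 7 that rose over no stimulus were higher in 7 of 7 pairs, from 0.54 ± 0.05 for Rel to 2.30 ± 0.06 for Tnfaip3 (adjusted p = 1.40e-12). After scaling, 9 genes were then called higher, where 38.3% of genes were. Nfkbie was 0.77 ± 0.05 lower with LPS in TPM (adjusted p = 1.41e-09, lower in 7 of 7 pairs). After scaling it differed by only 0.01 (adjusted p = 0.815). Relb was 0.39 ± 0.04 lower with LPS (adjusted p = 7.41e-07) and after scaling 0.38 higher, and Rela differed by -0.04 ± 0.05 (adjusted p = 0.391) and after scaling by 0.74. This comparison and that of each stimulus with none share libraries.

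Ratios of genes within a library do not depend on that scaling. They were chosen after their values were seen and carry no test. Nfkb1 to Rela was 0.947 to 1.04 without stimulus, 0.981 to 1.33 with CpG and 2.46 to 2.91 with LPS. Summed Nfkb1 transcripts thus went from near parity with those of Rela to a clear excess. Both sums include forms annotated as retained introns or for nonsense-mediated decay, so they are not the coding transcripts alone. Nfkb2 to Relb was 1.32 to 1.42, 1.46 to 1.55 and 3.88 to 4.38 in the same order. These 3 ranges did not overlap. Nfkbia to Nfkbie was 2.52 to 2.75 without stimulus, 2.46 to 3.11 with CpG and 8.01 to 12.9 with LPS, with the LPS range above both others. Tnfaip3 to Rela was 0.675 to 0.827, 0.917 to 1.17 and 4.60 to 5.88. Nfkbia to Nfkbib, in contrast, overlapped between CpG (4.61 to 5.47) and LPS (4.10 to 6.59), with 3.68 to 4.14 without stimulus.

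**Figure D3:**
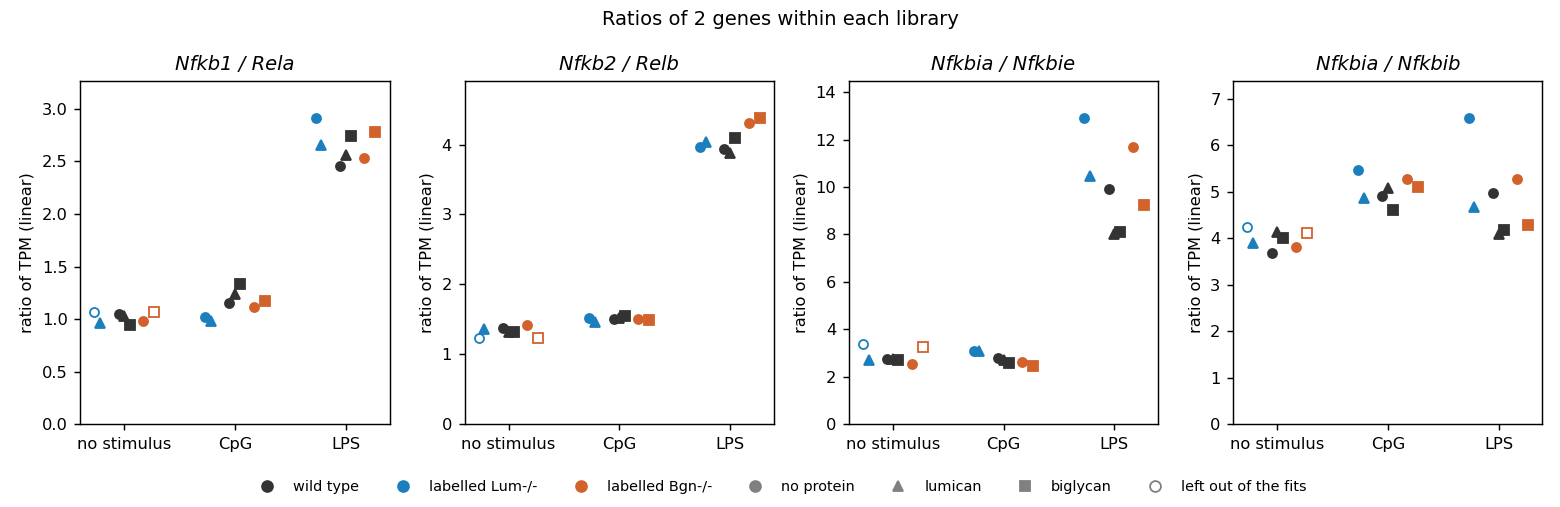
Ratio of TPM between 2 genes within each library (linear axes), by stimulus; colour gives the genotype label, shape the protein, and hollow points the 2 libraries left out of the fits. The Nfkb2 to Relb ratio is 3.88 to 4.38 in every LPS library and at most 1.55 in the others.

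The authors' estimates per transcript were read for the 25 transcripts that made up at least 5% of their gene on average. The share of 4 of them under LPS lay wholly outside the unstimulated range, and that of 0 under CpG did. The 4 were forms of Tnfaip3 and Nfkb2, 2 of each, and shares within a gene depend on each other. How often this occurs among all transcripts was not measured, so whether the count is unusual cannot be told. These transcripts were picked out after their values were seen, and kallisto divides shared reads between overlapping isoforms. For Tnfaip3, ENSMUST00000019997.10, which begins in the upstream window shown above with 2 stretches, made up 14.4 to 23.8% of the gene without stimulus, 16.8 to 23.1% with CpG and 38.7 to 50.4% with LPS. Its level went from 12.4 to 23.3 TPM without stimulus to 270 to 374 TPM with LPS. ENSMUST00000105527.1, which begins in the downstream window with no match, made up 61.7 to 74.6%, 63.2 to 70.6% and 38.3 to 50.2% of the gene. Its own level also rose, from 55.5 to 70.5 TPM to 285 to 350 TPM.

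For Nfkb2, ENSMUST00000111881.3, which begins in the downstream window shown, made up 11.05 to 17.8% without stimulus, 13.5 to 17.9% with CpG and 24.0 to 30.5% with LPS. ENSMUST00000073116.12, from the upstream window, made up 70.0 to 77.7%, 69.5 to 73.7% and 63.1 to 68.0%, and remained the larger form. Relb has annotated transcripts of 2203 and 2209 bases, and the estimate swung between them: the share of the first ran from 5.77 to 68.1% among the unstimulated libraries alone. Its level on its own is therefore not read here.

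**Figure D4:**
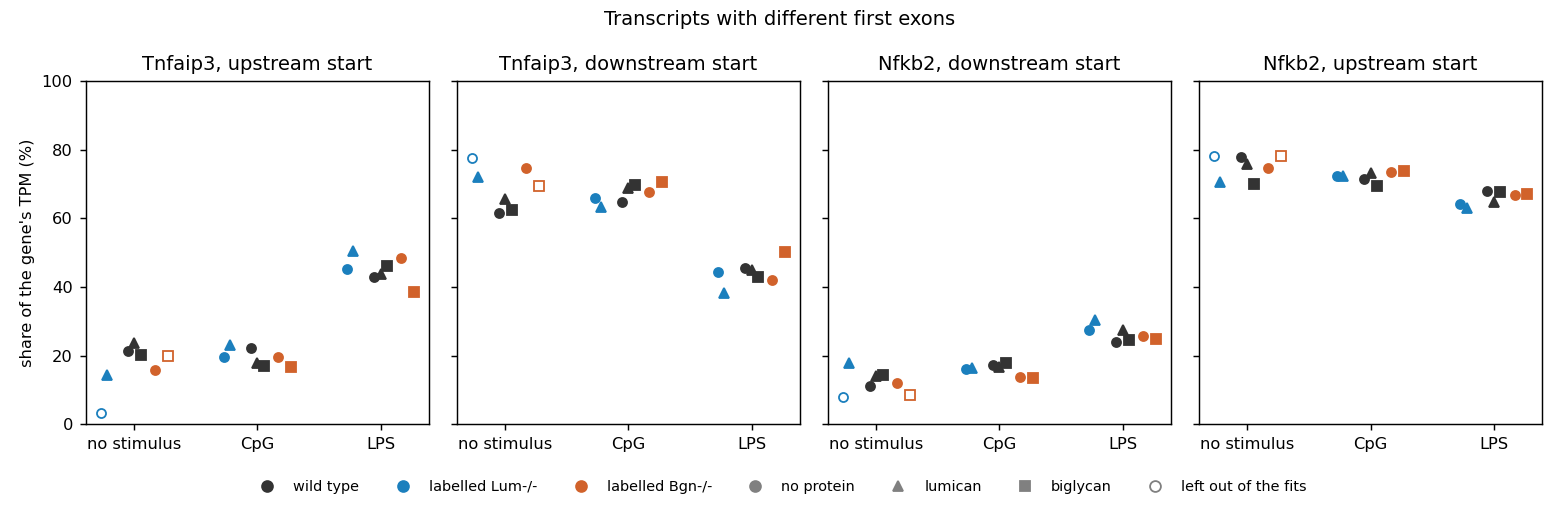
Share of the gene's TPM (percent) in 2 Tnfaip3 and 2 Nfkb2 transcripts with different starts, in each library by stimulus; colour gives the genotype label, shape the protein, and hollow points the 2 libraries left out. The upstream Tnfaip3 form is at most 23.8% in the fitted libraries without LPS and at least 38.7% with it.

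Genotype labels were compared under each stimulus with a term for protein. Of the 10 genes, 0 were called in any of the 4 comparisons by limma, where the shares of all genes called were 4.87% (Lum-/- label, LPS), 1.25% (Lum-/- label, CpG), 0.54% (Bgn-/- label, LPS) and 0.822% (Bgn-/- label, CpG). At an unadjusted p under 0.05 the numbers of members were 2, 0, 0 and 3 of 10 in that order, where 21.1%, 13.5%, 10.6% and 9.53% of all genes were. Mast cell markers also differed between labels. Cma1 was 20.5 to 34.2 TPM in 8 of the 9 wild-type libraries, 0.572 to 3.55 TPM in the 10 fitted libraries of both mutant labels and 1.03 TPM in the untreated wild-type library. The 6 mast cell markers other than Hdc summed to 64.6 to 115 TPM in those 8 libraries, 2.55 to 10.6 TPM under the mutant labels and 3.45 TPM in untreated wild type. In that measure the untreated wild-type library thus stood with the mutant labels, and the part of mast cells in the label comparisons was not tested. How these shares of all genes moved with the libraries used is given under the processing alternatives. Under LPS, Nfkbia was 1045 and 878 TPM in the libraries labelled Lum-/- without and with lumican, and 853 and 759 TPM in the matched wild-type libraries. Both were higher than their wild-type partner, but the difference of 0.24 ± 0.09 had an adjusted p of 0.144 (95% interval 0.05 to 0.44).

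Under CpG, all 10 estimates for the Bgn-/- label were below wild type, before and after scaling. The lowest was Nfkbiz, at 43.6 and 46.1 TPM without and with biglycan against 52.8 and 59.7 TPM in wild type. Its difference was -0.36 ± 0.10 (adjusted p = 0.144, lower in 2 of 2 pairs). Tnfaip3 was 117 and 129 TPM against 136 and 157 TPM, a difference of -0.27 ± 0.08 (adjusted p = 0.157). Neither passed the test across all genes. The 95% intervals of the 10 genes together ran from -0.57 to 0.19. Among 33 measured textbook NF-kB target genes, 5 were lower and 0 higher with that label under CpG, with a median of -0.42 against 0.04 for all genes, of which 69 of 11672 were lower. With all 21 libraries 2 of the 33 were lower. The same list had medians of 0.01 (Lum-/- label, LPS, 2 higher and 0 lower), -0.02 (Lum-/- label, CpG, 0 higher and 1 lower) and 0.00 (Bgn-/- label, LPS, 0 higher and 1 lower).

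The difference between labels in the response itself, stimulus against none, was tested in 4 comparisons. Members called were 0 in each, and of all genes the shares called were 0.00857% and 0.0% for the LPS and CpG responses with the Lum-/- label, and 0.0257% for each with the Bgn-/- label. At an unadjusted p under 0.05 the counts of members were 2 (LPS) and 0 (CpG) with the Lum-/- label, where 7.32% and 3.0% of all genes were. They were 0 and 1 with the Bgn-/- label, where 6.97% and 4.75% were. Only 1 unstimulated library per mutant label enters these fits. The widest bounds among the members' 95% intervals were -0.63 and 0.65, so for some members a difference in response of that size was not excluded by its interval.

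Recombinant proteins were compared with stimulus alone in 2 matched pairs each. Members called were 0 in all 4 comparisons, where 2.28% of genes were called for lumican with LPS, 0.0% for lumican with CpG, 0.231% for biglycan with LPS and 0.0% for biglycan with CpG. At an unadjusted p under 0.05 the member counts were 2, 0, 2 and 1 of 10, where 21.3%, 4.14%, 16.8% and 6.53% of all genes were. With lumican and LPS, Nfkbia was 759 TPM in wild type and 878 TPM in cells labelled Lum-/-, against 853 and 1045 TPM with LPS alone. It was lower in both pairs, by a difference of -0.24 ± 0.10 (adjusted p = 0.176). Relb was higher in both pairs, at 86.3 and 86.2 TPM against 74.7 and 74.8 TPM, with a difference of 0.18 ± 0.06 (adjusted p = 0.140) beside a median of 0.11 for all genes. After scaling, 2 of the 10 lumican estimates under LPS were above 0, against 6 before it.

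With biglycan and LPS, 9 of the 10 estimates were above 0, from -0.19 for Nfkbia to 0.18 for Nfkb2. The median of all genes was 0.09, and 4 of the 10 stayed above 0 after scaling. With CpG, the lumican estimates ran from -0.06 to 0.14 and the biglycan estimates from 0.00 to 0.18. The 95% intervals of all 10 genes lay between -0.31 and 0.37 for lumican with CpG, and between -0.24 and 0.38 for biglycan with CpG. These bounds are narrower than the effect of LPS on the 7 genes that rose. They are not narrower than the CpG response itself. Its lowest rise among the 10 genes was 0.14 and its median 0.34, both within the bounds.

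**Figure D5:**
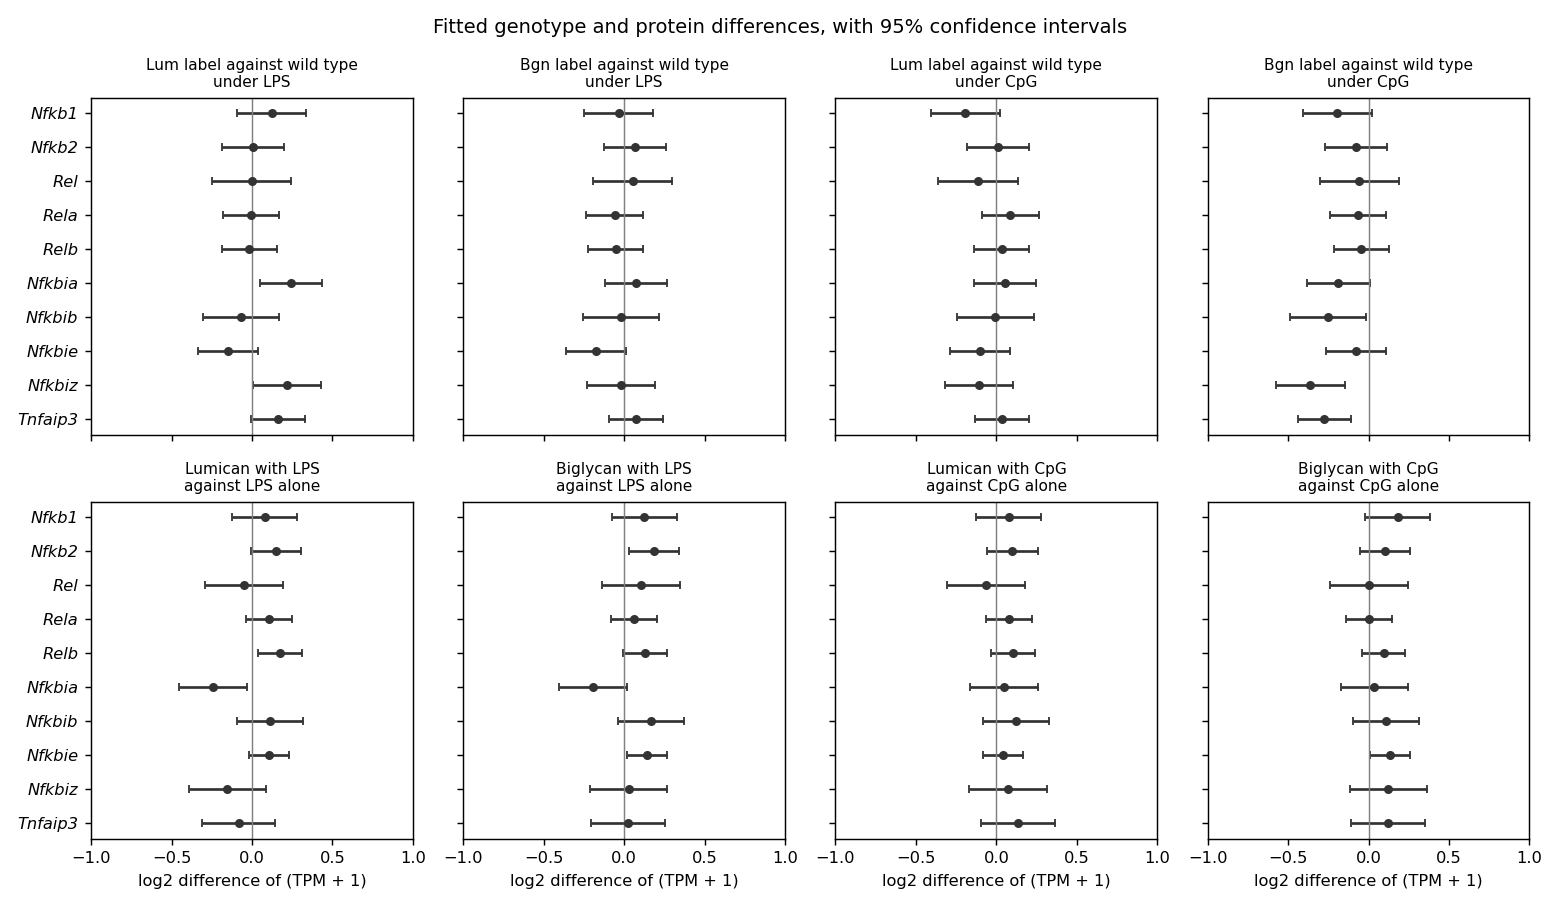
Fitted log2 differences of (TPM + 1) for the genotype labels against wild type (upper row) and for recombinant protein with stimulus against stimulus alone (lower row), with 95% confidence intervals, in 19 libraries. No gene passed the adjusted threshold; the estimate farthest from 0 is Nfkbiz for the Bgn-/- label under CpG, at -0.36.

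The rest of the pathway was read from lists of genes. Of all 11672 genes tested, 14.5% rose and 72.2% fell with LPS, and after scaling 4585 rose and 4598 fell. With CpG 15.2% rose and 19.9% fell. The counts in every list below are to be read beside these shares. Among 15 IKK and upstream kinases, 6 rose and 8 fell with LPS (10 and 4 after scaling), with a median of -0.19 against -0.71 for all genes. Ikbkb and Ikbkg, the catalytic IKKβ and the scaffold NEMO, rose by 0.49 ± 0.07 and 0.66 ± 0.09, while Chuk (IKKα) was 0.19 ± 0.05 lower in TPM and 0.61 higher after scaling. Tab1, Irak4 and Irak1, which act between the receptors and IKK, changed by -1.62, -1.37 and -1.24, and stayed lower after scaling. With CpG 2 of the 15 kinases rose, among them Irak2 (0.28 ± 0.07), and 2 fell, counts no higher than the shares of all genes.

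Of 17 adaptors and ubiquitin ligases, 6 rose and 9 fell with LPS (13 and 4 after scaling), and 6 rose and 1 fell with CpG. Myd88, the adaptor shared by TLR4 and TLR9, rose by 0.91 ± 0.07 with LPS and by 0.32 ± 0.07 with CpG. Traf1 rose by 2.50 ± 0.10 and 0.94 ± 0.10, and Malt1, a paracaspase that can cleave A20, by 1.90 ± 0.09 and 0.83 ± 0.09. Btrc, a subunit of the ligase that marks IkB proteins for destruction, changed by -1.52 ± 0.09 with LPS, and by -0.85 after scaling.

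Of 17 deubiquitinases and other restrainers, 6 rose and 8 fell with LPS (12 and 3 after scaling). With CpG 3 rose and 2 fell, counts near or below the shares of all genes. Tnip1, which encodes the A20-binding protein ABIN1, rose by 1.56 ± 0.06 with LPS and by 0.76 ± 0.06 with CpG. Zc3h12a, whose product Regnase-1 degrades cytokine mRNAs, rose by 2.45 ± 0.09 with LPS. The largest change in this list was a fall. Nlrc3 changed by -2.72 ± 0.12 with LPS, by -2.23 after scaling, and by -0.88 ± 0.12 with CpG. The deubiquitinase gene Cyld was 0.61 ± 0.07 lower with LPS in TPM and 0.17 higher after scaling. Among other IkB-like genes, 3 of 4 were tested. Bcl3 rose with CpG (0.55 ± 0.11, adjusted p = 0.00176), and with LPS its value was 0.21 ± 0.11 (adjusted p = 0.0825), or 1.01 and called higher after scaling.

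Target genes gave the largest values. With LPS 28 of 33 rose and 4 fell (32 and 0 after scaling). Their median in TPM was 4.34, and Il6, Csf3 and Ccl2 rose by 9.46, 8.26 and 7.84. With CpG 28 of 33 rose and 0 fell, with a median of 0.85 against -0.04 for all genes, and Myc rose most, by 2.02 ± 0.10. Il6 was 2.27 to 6.68 TPM without stimulus, 7.72 to 15.8 TPM with CpG and 2542 to 3515 TPM with LPS. Of 11 receptor genes tested, 7 rose and 3 fell with LPS (9 and 2 after scaling). Cd14, the coreceptor of TLR4, rose by 1.69 ± 0.08 with LPS, and Tlr9 by 0.64 ± 0.09 with CpG, from 1.98 to 3.04 TPM without stimulus to 2.99 to 4.96 TPM. In the same list, Unc93b1 changed by -1.29 ± 0.09 with LPS, and by -0.48 after scaling. Tnfrsf13c rose more than Tlr9 with CpG, by 1.40 ± 0.12.

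The genes most like the 4 members of largest spread were found by the root mean square difference of centred log2(TPM + 1) over 19 libraries and 8905 genes. This is a description over libraries that share stimuli. Tnfaip3 was most like Nlrp3 (0.185), Bcl2a1b (0.196) and Ccrl2 (0.196). Nfkbiz was most like Acod1 (0.158), Rab11fip1 (0.166) and Zfp558 (0.175). Nfkbia lay closest of the 4 to its nearest gene, Gch1 (0.0939), then Cflar (0.121) and Jak2 (0.142), and Nfkb1 was most like Lcp2 (0.130), Chic2 (0.132) and Nr3c1 (0.133).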

How the data were processed

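Per the submitters' processing notes, reads were handled with bcl2fastq 1.8.4 and kallisto 0.44.0 on the build GRCm38. The authors deposited TPM per transcript, normalized within each library, for 89562 transcripts. The table names a gene for 82788, GENCODE vM21 gave one for 5423 more through the transcript ID, and 1351 were left out (5351 to 7551 TPM per library). No counts were used here, so the depth is unknown. TPM was summed per gene.

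The 11672 genes averaging 1 TPM or more were fitted on log2(TPM + 1) by limma (version 3.58.1, under R 4.3.3), eBayes with a trend, two-sided, Benjamini-Hochberg adjusted p under 0.05. Fold changes are on that scale, which understates low genes. Stimuli were fitted with the 7 genotype-by-protein strata as a block (10 residual degrees of freedom), genotype labels as genotype-by-stimulus means plus protein (8), and proteins as genotype plus 9 treatments (8). Fits used 19 libraries. Scripts were tested on simulated data. Summaries and plots used pandas 2.3.3, matplotlib 3.10.9 and numpy 2.4.6 under Python 3.11.15.

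All members are named. From each gene list, the first 3 measured and the 3 with the largest called difference are eligible, plus the 3 genes most alike (mean of at least 5 TPM). Members and lists were chosen with earlier results of these data known. The settings varied were the pseudocount (0.1 or 5), the filter (5 TPM or none), median-of-ratios scaling, the most abundant transcript, all 21 libraries, 18 libraries (also without untreated wild type), robust eBayes, an additive fit, 1 stimulus at a time, and leaving out each library or genotype.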

Additional observations from a re-analysis of the deposited data

Results flagged for a closer look

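Among 30 sets of libraries (10 genes under 3 stimulus conditions, 5 or 7 libraries each), 1 had a value far from the others. Nfkb1 was 143 TPM in the untreated wild-type library (142.546 before rounding), against 118 to 123 TPM in the other 4 unstimulated libraries, and the gap was 0.802 of the whole range, with a critical value of 0.71. Chance marks about 1 in 20 such sets. Without that library Nfkb1 rose by 1.57 with LPS and by 0.40 with CpG (log2), against 1.50 and 0.33 with it.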

How the results depend on the processing

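Over the 10 genes and 3 stimulus comparisons, 905 of 960 alternative values kept their direction and their side of the threshold, 40 lost the call, 6 gained it and 9 changed sign. Leaving out 1 library gave 19 lost calls, 3 gained and 0 changes of sign in 570 values. In the genotype, protein and response comparisons, 0 of the 3560 alternative values of the members were called. Of these values 180 had the opposite sign to the reported one, spread over 63 of the 120 differences, and scaling alone turned 24. With CpG, 10 members were called, and 5 either without the wild-type libraries or in the additive fit. After median-of-ratios scaling the LPS difference turned to 0.62 for Relb and 0.61 for Nfkbie, and LPS against CpG to 0.74 for Rela, 0.38 for Relb and 0.0127 for Nfkbie. The additive fit turned Rela with LPS to -0.0302. Taking the most abundant transcript turned Relb to 1.07 with LPS, 0.12 for LPS against CpG, -0.0097 for lumican with LPS and -0.13 for lumican with CpG. It also turned Rela to 0.00129 for LPS against CpG, and Tnfaip3 to -0.10 for the CpG response with the Lum-/- label. Apart from the scaling, whose construction removes the common shift, the cause was not tested.

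Counts over all genes moved more. CpG called 4105 genes, 1264 without wild type and 2276 in the additive fit. With the Lum-/- label under LPS 568 were called, 206 with all 21 libraries and 1033 with 18. Under CpG these were 146, 10 and 395. With the Bgn-/- label they were 63, 2 and 223 under LPS, and 96, 15 and 247 under CpG. For lumican with LPS they were 266, 4 and 362, and for biglycan with LPS 27, 0 and 40. The 4 response comparisons had 1, 0, 3 and 3 genes called, and without a filter 112, 102, 113 and 113. Without the wild-type libraries 0 were called for either protein with LPS, and the proteins with CpG went from 0 up to 14 (lumican) and 10 (biglycan) with whole sets of libraries left out. Leaving out 1 library gave 37 to 1033, 21 to 395, 9 to 223 and 10 to 247 genes in the 4 label comparisons, 0 to 362 and 0 to 40 for lumican and biglycan with LPS, and 0 to 58 for biglycan with CpG. Each group has 1 library, so no replicate number could serve as a block. The stimulus fits pair libraries by stratum.

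Without counts, depth sets no stated limit here. Arms with 1 or 2 libraries borrow the spread of the others.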
